A study of Homo sapiens with 4 samples.

Results

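Genes with a ZNF symbol that lie outside chromosome 19 were followed through 4 mRNA libraries of a pair of cell lines from anaplastic thyroid cancer. The rule took every gene identifier made of ZNF, a number and at most 1 letter whose rows all lay off chromosome 19 and its alternate contigs, and kept those whose TPM averaged 1 or more across the 4 libraries. TPM (transcripts per 1000000) is a length-scaled share of all transcripts in a library. Of 26485 identifiers 529 fitted the name, 253 of them were on chromosome 19 and 276 were not, and 217 of these 276 reached the mean and are the members described here. Of the 59 that did not, 19 were listed at 0 in all 4 libraries and 14 reached 1 TPM in some library. The class was selected on its SW1736 TPM values, being lower with treatment, so the values of that line are a description and carry no test. Just inside the bound of 1 TPM were ZNF19, ZNF596 and ZNF169, with SW1736 differences of -0.77, 0.65 and -0.90 on the log2 scale defined below. Just outside it were ZNF214, ZNF287 and ZNF641, with -0.99, 0.00 and -0.28. ZNF287 was listed at 0 TPM in both SW1736 libraries, so its 0.00 is not an unchanged level.

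Zinc finger proteins of the C2H2 kind fold short loops around a zinc ion, and a row of such fingers reads DNA, or in some cases RNA. Many carry a KRAB domain at their start, which recruits the scaffold TRIM28 (KAP1) and with it histone methylation and silencing, for the most part at transposable elements. Others carry a SCAN domain, through which they pair, and the rest hold fingers alone. The largest KRAB clusters lie on chromosome 19, and the genes on other chromosomes form a more mixed company of KRAB genes, old conserved transcription factors and proteins that work on RNA or ribosomes.

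The lines were SW1736 and 8505C, grown in RPMI-1640 with serum, and each was given vehicle (DMSO) or 1.5 µM DHT for 24 h. Here DHT is dihydrotanshinone, a diterpene quinone from Salvia root, and not the androgen. Each of the 4 groups was 1 library, so no value has a replicate, no spread and no p-value can be given, and differences compare libraries. Aligned bases, from the ratio of coverage to FPKM, came to 3.67 and 3.85 Gb for SW1736 with DMSO and DHT and to 3.26 and 4.14 Gb for 8505C. The sum of FPKM (fragments scaled by length and by mapped total) was 438583 and 511866 in SW1736 and 437144 and 444082 in 8505C. Of the thyroid markers, TG and TSHR, which mark the differentiated thyrocyte, were at or near 0 in every library. The thyroid transcription factors PAX8 (87.1 and 117 TPM with DMSO and DHT) and FOXE1 (60.6 and 22.3) were present in SW1736 and near 0 in 8505C, whereas NKX2-1 had 69.8 and 174 TPM in 8505C but 0 in both SW1736 libraries. Of 10 immune markers 2 averaged 1 TPM or more (CD68 and CD14), as did 3 of 8 endothelial markers, all in 8505C only (CDH5, TIE1, FLT1), and 3 of 7 fibroblast markers. The summed level of the fibroblast list was 589 TPM with DMSO and 283 with DHT in SW1736 and at most 8.98 in 8505C, that of the immune list ran from 15.4 to 67.5 over the 4 libraries, and that of the endothelial list was at most 0.269 in SW1736 and 208 and 245 in 8505C. Their part in the values below was not tested.

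Most members were expressed at a low level. The median member stood at 7.96 TPM in SW1736 with DMSO and at 4.74 with DHT, and at 7.43 and 7.45 in 8505C. Their summed level was 3007 and 2183 TPM in SW1736, and 2863 and 2769 in 8505C, so the SW1736 DHT library stood below the other 3, which lay close together. Over these genes the median read depth was 11.3 and 6.61 in SW1736 and 9.52 and 12.2 in 8505C, which leaves single low members imprecise. In bulk RNA, fewer cells with a transcript and less of it per cell cannot be told apart.

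Differences were taken between log2(TPM + 1) values, so that folds of weakly expressed genes come out too small, and a gene was counted at 2-fold where this difference reached 1. In SW1736, 69 of the 217 members were at least 2-fold lower with DHT than with DMSO, beside 15.6% of the 11706 protein-coding genes that passed the same bound of 1 TPM, and 4 were at least 2-fold higher, beside 2.78%. In all 182 members lay below 0 (77.8% of all genes did), 32 lay above and 3 were equal. Among those equal, ZNF518B and ZNF883 were listed at 0 TPM in both SW1736 libraries, so no difference could show. The median member was at -0.76, with quartiles of -1.06 and -0.27, and the median of all genes was at -0.42, with quartiles of -0.81 and -0.05. As this contrast chose the class, these figures set out its size and nothing is read from them.

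Part of the displacement was shared by the whole library. The median of genes averaging 5 TPM or more was at -0.43 in SW1736, at -0.03 in 8505C and at -0.04 between the untreated lines. Centred on that gene, 15 members were 2-fold lower and 7 higher in SW1736 (4.07% and 4.78% of all genes), with a median of -0.34. At 1.5-fold on the uncentred scale 137 members were lower and 6 higher, beside 42.9% of all genes in either direction. On FPKM, which is not forced to a fixed sum, 18 members were 2-fold lower and 5 higher (8.30% lower, beside 6.02% of all genes), with a median of -0.46 beside -0.20 for all genes. With a pseudocount of 5, which damps weakly expressed genes, 9 members were 2-fold lower, 4.15% beside 5.88% of all genes. The direction of the median was the same on each scale, whereas the number past 2-fold, and whether its share exceeded that of all genes, depended on the scale.

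**Figure D1:**
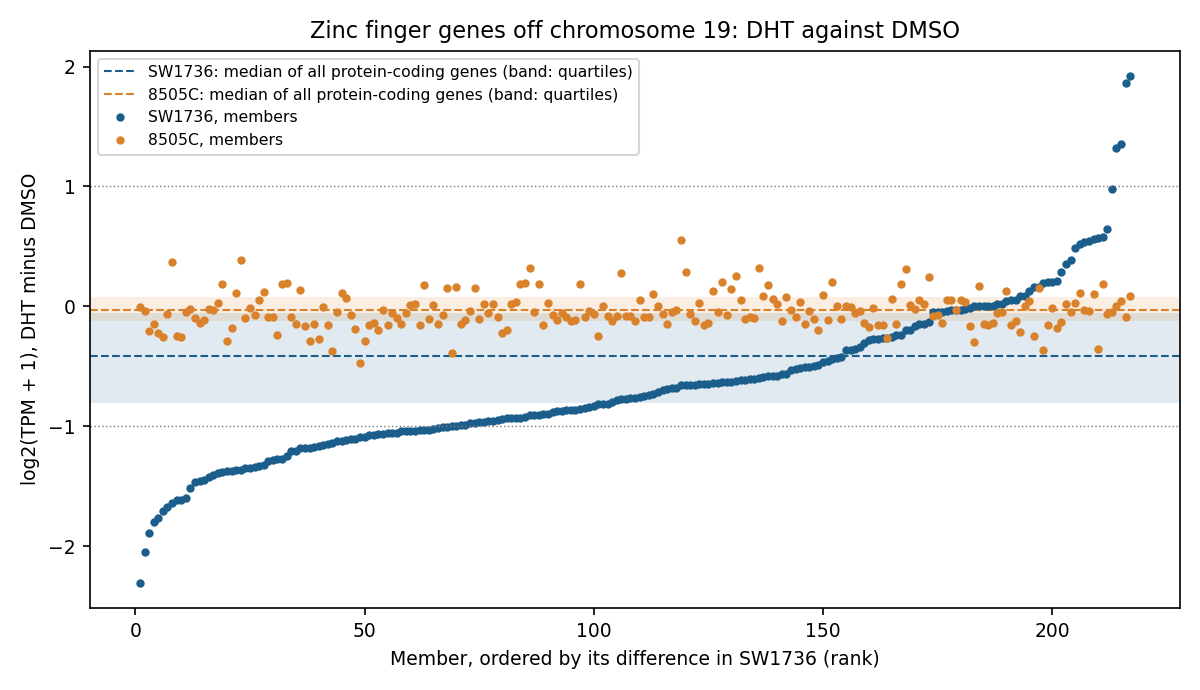
Difference with DHT on the log2(TPM + 1) scale for each of the 217 members, ordered by SW1736 (blue) and with the 8505C value of the same member at the same rank (orange). Dashed lines and bands are the median and quartiles of all 11706 protein-coding genes, and the SW1736 curve runs from -2.30 to 1.92 whereas every 8505C point lies between -0.47 and 0.56.

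The member with the largest difference was ZNF608 (chromosome 5, 124636917 to 124745112), a paralogue of ZNF609. Its SW1736 level was 27.3 TPM in the DMSO library and 4.74 in the DHT library, a log2 difference of -2.30, and at 0.06 in both 8505C libraries. The gene was thus measurable in 1 line alone.

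Next came ZNF248, a KRAB gene, at 8.47 TPM with DMSO and 1.29 with DHT in SW1736 (-2.05) and at 5.51 and 5.35 in 8505C. ZNF37A, also a KRAB gene, was at 19.4 and 4.50 TPM in SW1736 (-1.89) and at 11.3 and 9.66 in 8505C. ZNF33A, a further KRAB gene of the same stretch of chromosome 10, was at 15.4 and 4.38 (-1.61) and at 8.26 and 6.77. In all of these the SW1736 DHT library was the lowest of the 4, and the SW1736 DMSO library the highest.

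ZNF217 (chromosome 20, 53567071 to 53583097), a corepressor-bound factor amplified in breast and other cancers, was the most abundant of the 10 members with the lowest SW1736 difference at a mean of 5 TPM or more. Its DMSO and DHT libraries had 65.0 and 17.9 TPM in SW1736 (-1.80), and 35.5 and 32 in 8505C. ZNF445, a KRAB protein that keeps imprinted loci methylated together with ZFP57, was at 7.96 and 1.64 TPM in SW1736 (-1.76) and at 9.19 and 7.74 in 8505C. Its level was alike in the untreated lines, and its SW1736 DHT library stood alone below the others. ZNF106, an RNA-binding protein whose loss causes motor neuron degeneration in mice, showed the same layout, with 35.9 and 10.3 TPM in SW1736 (-1.71) and 34.8 and 29 in 8505C.

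The last 3 of the 10 lowest members averaging 5 TPM or more were ZNF786, ZNF322 and ZNF35. ZNF786 was at 10.6 and 2.83 TPM in SW1736 (-1.60), ZNF322 at 6.62 and 1.76 (-1.46) and ZNF35 at 7.38 and 2.05 (-1.46). In 8505C their differences were -0.05, -0.10 and -0.14. Relative to the median gene of SW1736 these 10 remained at least 2-fold lower, from -1.87 for ZNF608 to -1.03 for ZNF35. When quadratic trends of the difference on mRNA length, on GC content and on expression were taken out, ZNF608 was at -1.68, ZNF248 at -1.36, ZNF786 at -1.32, ZNF217 at -1.12 and ZNF35 at -1.05, and the other 5 lay between -0.99 and -0.79. Of ZNF322's mRNA, 27.6% is shared, in stretches of 50 bases, with another annotated transcript, mainly the pseudogene ZNF322P1, so its reads may be divided.

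Among the members of at least 5 TPM, 2 were 2-fold higher in SW1736. ZNF408 (chromosome 11, 46700767 to 46705916), in which variants cause retinal vascular disease, had 14.0 TPM in the DMSO and 37.5 in the DHT library, a difference of 1.36, and at 11.2 and 11.6 in 8505C. ZNF92, a KRAB gene of chromosome 7 (65373799 to 65401135), was at 16.0 and 41.5 TPM (1.32) and at 4.68 and 4.69 in 8505C. For both, the SW1736 DHT library was the highest of the 4 and the 8505C libraries were level.

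Behind these came ZNF385A, a p53-linked RNA-binding protein, at 5.30 and 11.4 TPM in SW1736 (0.98), and ZNF703, a luminal breast cancer oncogene and developmental corepressor, at 46.7 and 70.3 TPM (0.58). ZNF654 and ZNF133 were both at 0.57, though ZNF654 overlaps CGGBP1 and reads of the pair may be mixed. Below 5 TPM, ZNF34 went from 1.67 to 8.70 TPM (1.86) and ZNF75A from 0.519 to 4.75 (1.92), both picked out after their values were seen. ZNF75A overlaps TIGD7, so its reads may in part come from that gene.

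**Figure D2:**
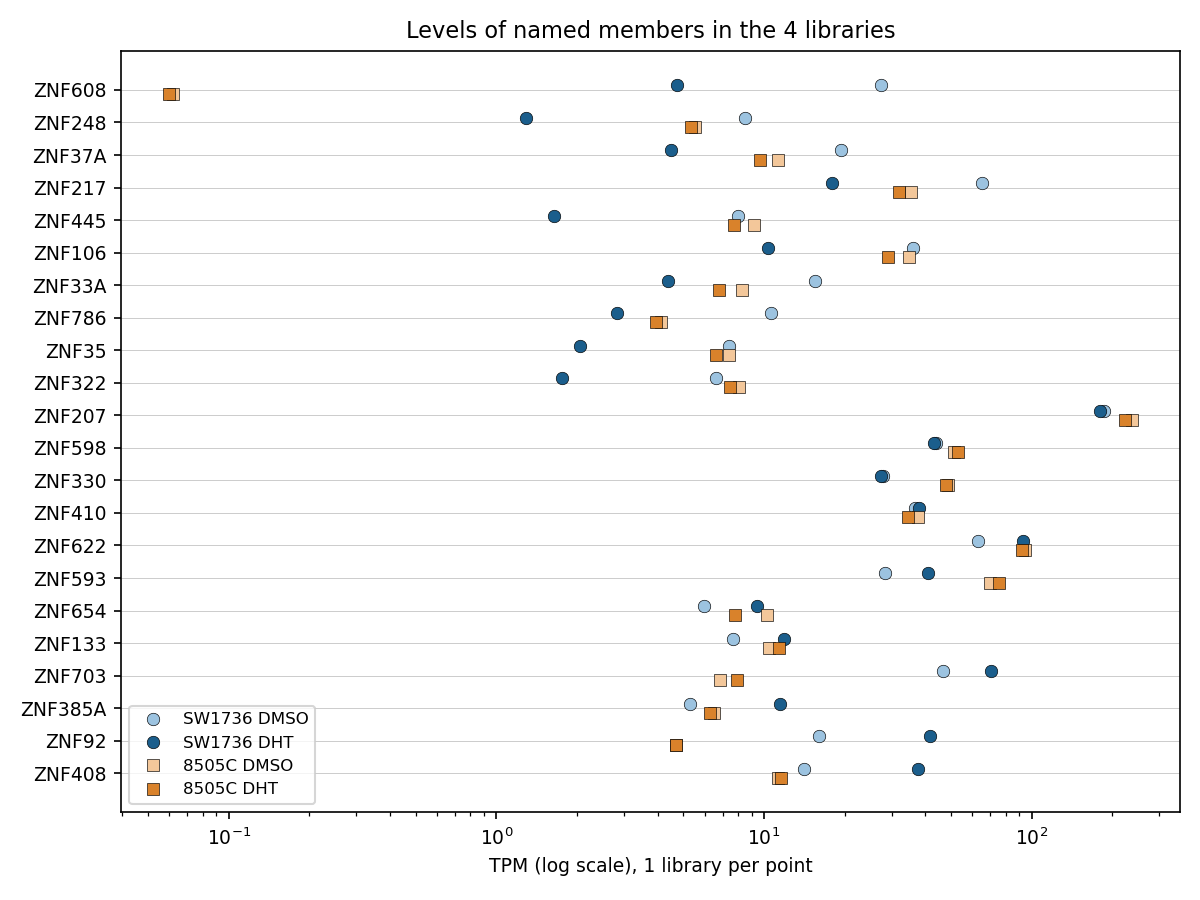
TPM on a log axis of 22 named members in the 4 libraries, 1 point per library, with SW1736 as circles and 8505C as squares and DHT in the darker shade. In the upper 10 genes the SW1736 DHT point lies left of its DMSO point, with ZNF217 at 17.9 against 65.0, while the 8505C points of each gene nearly coincide.

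By role, 44 ZNF genes off chromosome 19 with a known function were looked at, of which 41 were members (ZNF423, ZNF469 and ZNF521 were under 1 TPM). In SW1736 10 of the 41 were 2-fold lower and 0 higher, with a median of -0.50, beside 59 lower and 4 higher of the other 176 members, with a median of -0.80. Of all genes 15.6% were lower and 2.78% higher. The difference between these 2 groups was not tested.

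Some panel members work on ribosomes, the nucleolus or the spindle, and the 5 named here were grouped after their values were seen. ZNF207 (BuGZ), a microtubule and spindle assembly factor and the most abundant member, was at 186 and 179.7 TPM in SW1736 and 236 and 224 in 8505C, with 18.4% of its mRNA shared with another annotated transcript. ZNF622, which acts in the last steps of the large ribosomal subunit, was at 63.2 and 92.8 TPM in SW1736 (0.55) and at 94.4 and 91.8 in 8505C. ZNF593, another factor of large subunit assembly, was at 28.4 and 41.0 TPM (0.52) and at 69.6 and 75.2. ZNF598, the ubiquitin ligase that marks collided ribosomes, differed by -0.03, as did ZNF330, a nucleolar protein. On this scale these 5 genes thus lay above the median gene of the SW1736 library, by 0.38 for ZNF207 and 0.97 for ZNF622.

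Among members with roles in RNA or transcript choice, ZNF346, which binds double-stranded RNA, was at -0.50, and ZNF326, a part of the DBIRD complex that couples splicing to elongation, went from 45.3 to 25.4 TPM (-0.81). ZNF638, which silences unintegrated retroviral DNA together with the HUSH complex, went from 23.5 to 9.11 TPM (-1.28) and was at 32.9 and 30.9 in 8505C. ZNF318, which sets the choice between IgM and IgD transcripts in B cells, was at 13.8 and 5.52 TPM in SW1736 (-1.18). ZNF385A, above, lay on the other side of 0.

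Other panel members act on chromatin or SUMO, again grouped after their values were seen. ZNF827, which brings NuRD to telomeres, was at 8.02 and 2.97 TPM in SW1736 (-1.18), and ZNF462, a neurodevelopmental disease gene with 33 finger matches, at 15.7 and 5.86 (-1.29). ZNF644, a partner of the methyltransferases G9a and GLP, went from 19 to 9.34 TPM (-0.95). The ZMYND8 partners ZNF687, ZNF592 and ZNF532 differed by -1.15, -0.68 and -0.63. ZNF451, a SUMO ligase, was at -0.86, and at 0.09 without the trends named above.

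The remaining panel members described are sequence-specific factors. ZNF148 went from 13.4 to 6.05 TPM (-1.03), whereas its paralogue ZNF281 was at -0.27. ZNF143, which binds many promoters and chromatin loop anchors, was at 17.3 and 15.5 TPM (-0.15), and its paralogue ZNF76 at -0.25. ZNF410, known for holding the level of CHD4, was at 36.6 and 38.0 TPM (0.05), although 85.5% of its mRNA is shared with another annotated transcript. ZNF384, a partner in leukaemia fusions, was at -0.58, and ZNF609, known also for a circular RNA that gene tables do not separate, at -1.01. ZNF202, a repressor of lipid genes, was at 0.48, from 10.8 to 15.5 TPM. ZNF10 (KOX1), whose KRAB domain is used in CRISPR interference, was near the expression bound with 1.46 and 1.09 TPM (-0.24).

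By domains of the encoded protein, found in the coding sequences of 214 members, 98 held a KRAB domain, 8 a SCAN domain without KRAB, 83 at least 3 finger matches with neither, and 25 fewer than 3. A finger was counted where a cysteine pair and a histidine pair stood at C2H2 spacing. In the last class ZNF330, ZNF365, ZNF451, ZNF503 and ZNF703 had no match, among others. Only the chosen coding transcript of each gene was read, and only this spacing was counted. Fingers of other transcripts or other spacing are therefore missed, and no match does not mean no zinc finger. The KRAB members were the least abundant, with a median of 6.47 TPM in untreated SW1736, and those with fewer than 3 fingers the most, with 23.5.

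In SW1736 the KRAB members had the median -0.85, with 35 of 98 at least 2-fold lower and 2 higher, where all genes had 15.6% and 2.78%. The SCAN members were at -0.88 (3 of 8 lower), those with fingers alone at -0.65 (23 of 83 lower, 2 higher) and those with fewer than 3 fingers at -0.50 (7 of 25 lower). The spread inside each class was wider than the distance between them, as KRAB members ran from -2.05 to 1.86 and finger-only members from -1.80 to 1.92. Members with at least 13 fingers had a median of -0.90 (17 of 48 lower, 0 higher) and those with 2 or fewer a median of -0.48 (8 of 28 lower). Without the trends named above, the medians of the 4 classes were -0.33, -0.37, -0.15 and -0.17 in the same order. In 8505C the 4 classes were at -0.06, -0.05, -0.04 and -0.06.

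**Figure D3:**
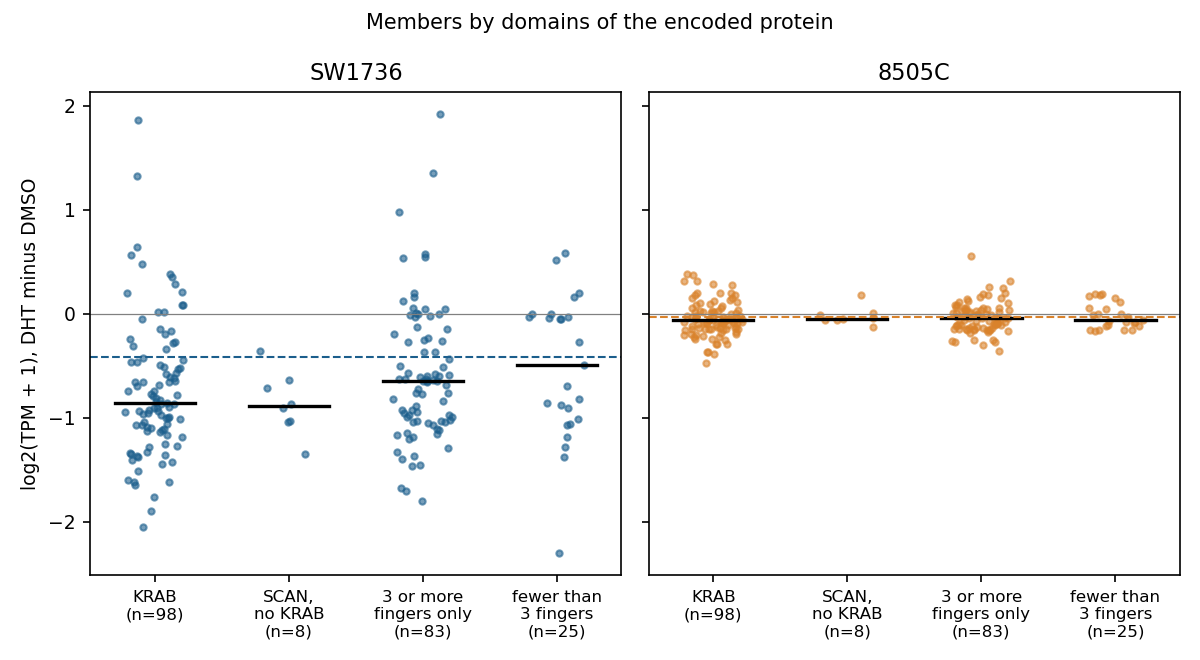
Difference with DHT on the log2(TPM + 1) scale for members with a KRAB domain, a SCAN domain without KRAB, at least 3 fingers alone or fewer than 3 fingers, in SW1736 (left) and 8505C (right). Black bars are class medians and dashed lines the medians of all protein-coding genes: the SW1736 medians run from -0.88 to -0.50 with wide overlap, and the 8505C medians from -0.06 to -0.04.

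Members have an unusual gene build. Their median mRNA was 3499 nt long beside 3173 nt for all protein-coding genes, yet with 5 exons beside 9, and the longest exon, which often encodes the whole finger array, was 2564 nt beside 1524. Their GC content was 45.4% beside 48.9%, and their mean level 6.92 TPM beside 22.8. Length and GC content went with the SW1736 difference among members and over all genes: Spearman's rho with mRNA length was -0.35 across 214 members and -0.42 across 11682 genes, and with GC content 0.20 and 0.31. These are correlations across genes of 1 pair of libraries, which share depth and scaling.

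Members were set beside genes of like length and GC content, in 3 equal groups of all genes bounded at 2360 and 4229 nt and at 44.3% and 54.5% GC. In the longest group the members' SW1736 median was -0.97 beside -0.72 for all genes, and 45.7% of 81 members were 2-fold lower beside 28.8%. In the middle group it was -0.65 beside -0.45 (22.9% of 96 beside 12.4%), and in the shortest -0.50 beside -0.14 (24.3% of 37 beside 5.50%). Over the 9 groups by both measures the members' median lay below that of all genes in 9, from -0.09 beside -0.04 in the short, GC-rich group to -0.99 beside -0.79 in the long, GC-poor one. As SW1736 chose the class, this is a description. In 8505C, which did not, the members' median was below in 6 of 9 groups.

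**Figure D4:**
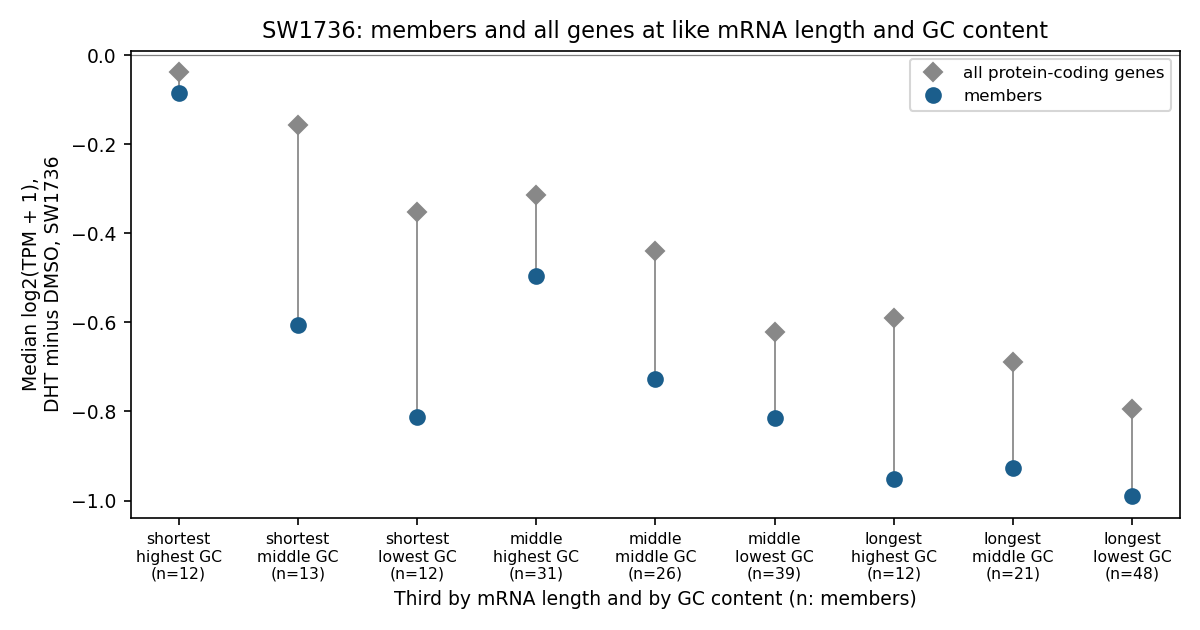
Median SW1736 difference with DHT, on the log2(TPM + 1) scale, of members (circles) and of all protein-coding genes (diamonds) in 9 groups, 3 by mRNA length crossed with 3 by GC content. The circle lies below the diamond in all 9 groups, by the least in the short, GC-rich group (-0.09 beside -0.04).

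Many members lie in runs of neighbouring genes, and 12 runs of at least 4 members were found with starts no more than 500 kb apart. In SW1736 15.6% of all genes and 31.8% of the members were 2-fold lower, which is the scale for the counts by run. As SW1736 chose the class, these counts are a description, and clustering was not tested. In the run of chromosome 10 from 37776526 to 38123350, the KRAB genes ZNF248, ZNF25, ZNF33A and ZNF37A were all 4 at least 2-fold lower in SW1736, with a median of -1.75. In the run of chromosome 3 from 44439770 to 44723831, ZNF445, ZNF852, ZNF197, ZNF35 and ZNF502 lay between -1.76 and -0.93, and 3 of the 5 were 2-fold lower. In both runs every member was below the median gene.

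In 3 further runs all members were also below the median gene: 4 of chromosome 4 (-1.64 to -0.65), ZNF487, ZNF239, ZNF485 and ZNF32 of chromosome 10 (-1.07 to -0.65) and the ZNF354 run of chromosome 5 (ZNF354A, ZNF354B, ZNF354C and ZNF879, -0.85 to -0.51, with 0 of 4 at 2-fold). In the run of chromosome 12 from 132921433 to 133207111 all 7 members lay below 0 (-1.17 to -0.24). There 2 of 7 were 2-fold lower, and ZNF10 lay above the median gene. The remaining runs held members on both sides of 0. On chromosome 7 from 64313873 to 65401135, 5 of 7 were 2-fold lower, among them ZNF736 (-1.52), ZNF680 (-1.45) and ZNF138 (-1.09), but their neighbour ZNF92 was at 1.32. On chromosome 16 from 30378312 to 31083512, 3 of 11 were 2-fold lower, beside 15.6% of all genes. That run held ZNF689 at -1.42 beside ZNF768 at 0.12. Paralogues of a run share sequence (20.7% of the mRNA of ZNF354A and 11.1% of that of ZNF354B), so neighbours are not independent measurements.

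Promoters were read as the 250 bases before and 50 after the start of each gene, from the RefSeq table (GRCh38.p14), in which 180 members were found. A search for 6 fixed motifs on both strands covered CCGGAAG (bound by ETS factors), TGACGTCA (the cyclic AMP response element, bound by CREB and ATF factors), the palindrome bound by NRF1, AAGATGGCG (bound by YY1), ACTACAA (bound by ZNF143) and the TATA box TATAAA. The ETS motif stood in 70 of the 180 member promoters (38.9%), beside 20.4% of 9686 expressed coding genes and 10.7% of all 27305 promoters of that length. Members with and without it had SW1736 medians of -0.77 and -0.81. The 4 promoters that follow show the motif in a lower gene, ZNF35 (chr3:44648482-44648781, plus strand, at -1.46), in a higher one, ZNF408 (chr11:46700781-46701080, plus strand, at 1.36), and in the start region shared by ZNF646 (chr16:31074172-31074471, plus strand, at -1.12) and ZNF668, with ZNF398 (chr7:149126158-149126457, plus strand) as a shared start region without any of the 6. They are written 5′ to 3′ on the gene's strand, and capitals mark CCGGAAG or its reverse complement CTTCCGG.
ZNF35: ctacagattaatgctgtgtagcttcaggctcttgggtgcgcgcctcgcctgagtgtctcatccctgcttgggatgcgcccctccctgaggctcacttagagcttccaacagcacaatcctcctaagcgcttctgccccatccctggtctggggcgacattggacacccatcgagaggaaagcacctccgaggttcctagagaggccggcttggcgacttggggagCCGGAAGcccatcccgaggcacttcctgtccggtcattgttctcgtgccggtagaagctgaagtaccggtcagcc
ZNF408: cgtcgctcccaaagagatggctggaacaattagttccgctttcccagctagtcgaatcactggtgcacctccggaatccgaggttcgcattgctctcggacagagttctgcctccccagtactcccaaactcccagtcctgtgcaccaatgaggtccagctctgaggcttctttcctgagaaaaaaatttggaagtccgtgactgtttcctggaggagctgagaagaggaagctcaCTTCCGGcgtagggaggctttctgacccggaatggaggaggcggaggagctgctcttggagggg
ZNF646: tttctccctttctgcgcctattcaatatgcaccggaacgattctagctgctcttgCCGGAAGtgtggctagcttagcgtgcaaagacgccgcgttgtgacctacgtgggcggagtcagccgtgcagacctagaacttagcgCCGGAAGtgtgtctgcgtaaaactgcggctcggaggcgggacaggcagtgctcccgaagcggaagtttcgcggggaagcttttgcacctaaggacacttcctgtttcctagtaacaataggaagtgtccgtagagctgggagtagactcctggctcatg
ZNF398: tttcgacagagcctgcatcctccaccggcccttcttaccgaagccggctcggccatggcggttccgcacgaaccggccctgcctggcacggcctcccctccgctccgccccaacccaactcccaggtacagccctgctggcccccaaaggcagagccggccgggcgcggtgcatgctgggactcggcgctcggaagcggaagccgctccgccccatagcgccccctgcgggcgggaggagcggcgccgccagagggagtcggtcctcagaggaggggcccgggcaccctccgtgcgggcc

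ZNF646 and ZNF668 start 180 bases apart on opposite strands, and their promoter windows overlap by 281 bases. Their SW1736 differences were -1.12 and -0.73 and their 8505C differences 0.11 and 0.10. ZNF398 and ZNF425 start 82 bases apart, and their windows overlap by 183 bases. ZNF398 was at 11.9 and 6.49 TPM in SW1736 (-0.78), whereas ZNF425 was at 2.15 and 2.84 (0.28), so genes of a shared start region did not always lie on the same side. A further pair, ZNF891 and ZNF10, start 351 bases apart and were at -0.93 and -0.24.

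TGACGTCA stood in 8 member promoters (4.44%, beside 3.45% of expressed coding genes and 1.98% of all promoters). The SW1736 median of these 8 was -0.09, and that of the other matched members -0.82. They were ZNF593 (0.52), ZNF511 (-0.01), ZNF335 (-0.02), ZNF330 (-0.03), ZNF143 (-0.15), ZNF10 (-0.24), ZNF438 (-0.62) and ZNF200 (-1.37), so 1 of the 8 was 2-fold lower. Members with and without the other motifs had medians of -0.24 and -0.81 for AAGATGGCG (5 members), -0.71 and -0.80 for the NRF1 palindrome (6), -0.88 and -0.78 for ACTACAA (12) and -1.03 and -0.78 for TATAAA (8). With 5 to 12 members a motif, and with SW1736 having chosen the class, these medians are a description. Over all expressed coding genes the medians for TGACGTCA lay close together, at -0.40 for 334 genes with it and -0.43 for 9361 without. The shares 2-fold lower were 14.4% with it and 15.7% without, so 1 of 8 members is near the share of all genes. For the NRF1 palindrome they were -0.54 with and -0.425 without. For TATAAA they were -0.19 with and -0.44 without, the reverse of the order among members. The 8 members had a median mean level of 21.6 TPM, above that of the class, and the part of their level was not tested. Printed here are ZNF593 (chr1:26169658-26169957, plus strand), ZNF143 (chr11:9460762-9461061, plus strand) and ZNF200, the lowest of the 8 (chr16:3235109-3235408, minus strand), with TGACGTCA and CCGGAAG in capitals.
ZNF593: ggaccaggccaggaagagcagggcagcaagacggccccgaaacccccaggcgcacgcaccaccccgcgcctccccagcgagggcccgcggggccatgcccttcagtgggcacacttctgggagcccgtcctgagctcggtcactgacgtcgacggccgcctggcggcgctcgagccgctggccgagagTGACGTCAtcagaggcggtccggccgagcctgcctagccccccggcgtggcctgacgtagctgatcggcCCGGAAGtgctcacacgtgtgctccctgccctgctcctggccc
ZNF143: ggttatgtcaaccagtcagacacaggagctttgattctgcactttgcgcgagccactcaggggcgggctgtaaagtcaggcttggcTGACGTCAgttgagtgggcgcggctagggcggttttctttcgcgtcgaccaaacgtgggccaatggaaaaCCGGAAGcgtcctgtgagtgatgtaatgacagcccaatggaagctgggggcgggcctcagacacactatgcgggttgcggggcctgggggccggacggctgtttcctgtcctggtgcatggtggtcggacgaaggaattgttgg
ZNF200: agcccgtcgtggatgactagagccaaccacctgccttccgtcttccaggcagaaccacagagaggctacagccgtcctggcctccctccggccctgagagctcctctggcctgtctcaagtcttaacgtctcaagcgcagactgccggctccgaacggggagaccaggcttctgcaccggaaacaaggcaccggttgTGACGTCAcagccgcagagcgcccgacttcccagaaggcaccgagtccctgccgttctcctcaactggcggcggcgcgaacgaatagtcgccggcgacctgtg

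The 8505C line was not used to choose the class. There 0 of the 217 members were 2-fold lower and 0 higher with DHT, beside 0.171% and 0.273% of all genes (centred, 0.171% and 0.290%, again with 0 members), and 0 reached 1.5-fold in either direction, beside 1.80%. Below 0 lay 140 members, beside 57.0% of all genes, and the median was -0.06 beside -0.03. The whole class lay between -0.47 (ZNF138) and 0.56 (ZNF32).

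The 4 highest members of at least 5 TPM were ZNF32, at 5.45 TPM with DMSO and 8.50 with DHT, ZNF783 (0.32), ZNF789 (0.31) and ZNF692 (0.25). The 4 lowest included ZNF33B (-0.38), ZNF267 (-0.37) and ZNF654 (-0.36) beside ZNF138, which went from 5.16 to 3.45 TPM. ZNF654 was thus lower in 8505C and higher in SW1736 (0.57), and neither value reached 2-fold.

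Across the 217 members the differences of the lines went together weakly, with Pearson's r = 0.07 and Spearman's rho = 0.12, beside 0.20 and 0.30 over all genes. The points share scaling within each library, and no p-value is given. Of the 69 members 2-fold lower in SW1736, 52 were below 0 in 8505C and 17 above, and of all genes 2-fold lower in SW1736, 1399 were below and 415 above.

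Between the untreated lines more members stood 2-fold apart than with DHT in 8505C. Of the members 33 had a 2-fold lower level in untreated 8505C, beside 12.6% of all genes, and 17 a 2-fold higher one, beside 9.97%. Below 0 lay 119 members, beside 52.9% of all genes, and the median was -0.09 beside -0.05. The bound of 1 TPM on the mean also admits genes that are expressed in 1 line alone, which adds to both counts. Of the 177 members with at least 1 TPM in every library, 23 were 2-fold lower in untreated 8505C and 6 higher. The shares of all genes given here rest on the bound on the mean, so they are no match for these 177.

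Among members that averaged 5 TPM or more, the low end held ZNF608 (-4.74), then the paralogues ZNF503 (34.7 TPM in untreated SW1736 and 4.79 in untreated 8505C, -2.62) and ZNF703 (46.7 and 6.86, -2.60), developmental corepressors of the same small family. ZNF32 (27.7 and 5.45, -2.15) and ZNF92 (16.0 and 4.68, -1.58) completed the 5 lowest at that level. At the high end, ZNF518B and ZNF883 were listed at 0 in both SW1736 libraries and stood at 16.5 and 11.2 TPM in untreated 8505C, and a fold against 0 is not given. ZNF512B was at 7.44 and 38.6 TPM (2.23), ZNF593 at 28.4 and 69.6 (1.27) and ZNF697 at 3.52 and 9.69 (1.24). Of these 10 members, picked at a mean of at least 5 TPM, ZNF92 alone was called KRAB. Over all members, 19 of 98 KRAB genes were 2-fold lower in untreated 8505C and 5 higher (median -0.32). Of the 83 with fingers alone, 8 were lower and 7 higher (median 0.00), and of the 25 with fewer than 3 fingers, 5 and 4 (0.17). Of the 8 SCAN members 0 were lower and 1 higher (0.44). Among all genes 12.6% were lower and 9.97% higher. Members of lower mean level also stood far apart, among them ZNF365 (6.58 and 0.05 TPM, -2.85), ZNF117 (-2.09), the KRAB genes ZNF680 (-1.95) and ZNF736 (-1.76), and ZNF704 (0.01 and 7.90 TPM, 3.14), named after their values were seen. ZNF365 had a read depth of only 0.36 in untreated SW1736, and 28.0% of its mRNA is shared with another annotated transcript. ZNF365 overlaps LOC283045 and ZNF117 overlaps ERV3-1, so reads may be mixed. The read depth of ZNF680 was 2.18 and 0.36 in the untreated lines.

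The untreated difference varied by chromosome. All 25 members of chromosome 7 lay below 0, 15 of them 2-fold lower, with a median of -1.04 beside -0.62 for the other protein-coding genes of that chromosome. On chromosome 10, 15 of 16 lay below 0 and 7 were 2-fold lower, with -0.90 beside -0.66. Of the other genes, 26.8% on chromosome 7 and 23.2% on chromosome 10 were 2-fold lower, above the 12.6% of all genes. Chromosomes 7 and 10 held 41 of the members and 22 of the 33 that were 2-fold lower. The share of other genes was also high on chromosomes X (35.7%) and 20 (18.5%), where members followed less. There 2 of 9 and 0 of 7 members were 2-fold lower, and the X median was -0.43 beside -0.77. In the run of chromosome 7 from 149069641 to 149624790, all 9 members, ZNF282 and ZNF746 (PARIS) among them, were between -1.48 and -1.01. On chromosome 8 the median was 0.62 beside 0.58 for other genes, and on chromosome 17 it was 0.44 beside 0.44. Over 20 chromosomes the members' median and that of the other genes had Spearman's rho = 0.90 and Pearson's r = 0.88, a description of the same pair of libraries. Copy number was not measured in these files.

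**Figure D5:**
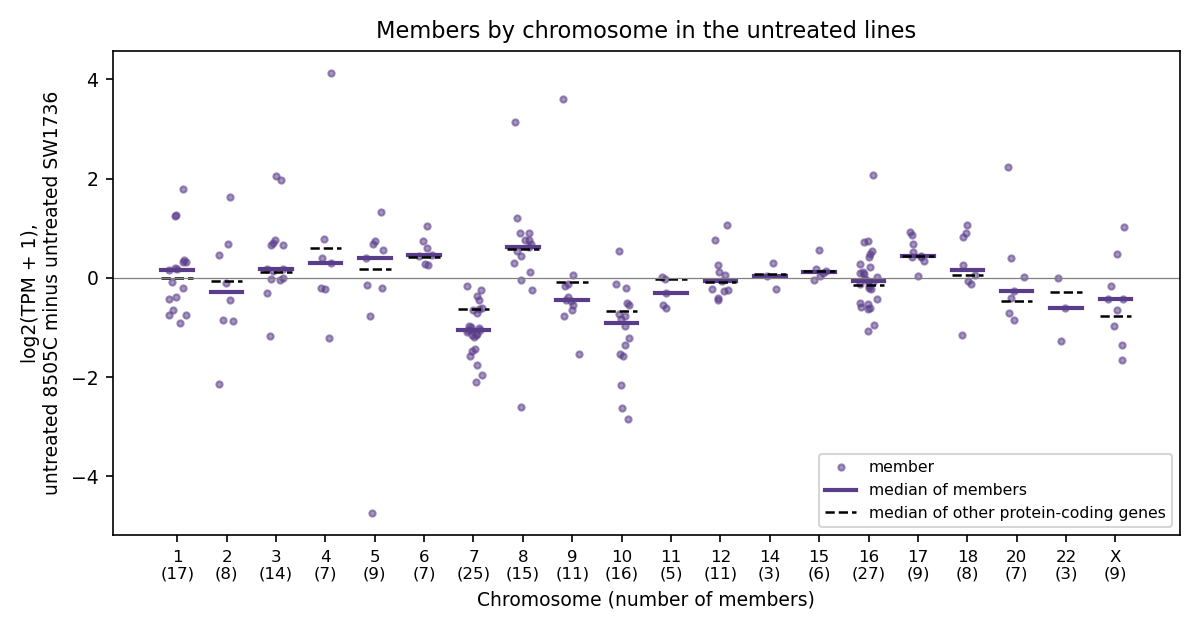
Difference between untreated 8505C and untreated SW1736 on the log2(TPM + 1) scale for each member (points), by chromosome, with the median of members (solid bar) and of the other protein-coding genes of that chromosome (dashed bar). ZNF518B and ZNF883, listed at 0 in SW1736, are the highest points, and every point of chromosome 7 lies below 0. The solid and dashed bars lie close together on some chromosomes, such as 17 (0.44 beside 0.44). On others they lie apart, such as X (-0.43 beside -0.77).

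With DHT in SW1736, the members' median lay below that of the other genes of the chromosome on 18 of 20 chromosomes, and was lowest on chromosome 9 (-1.07 beside -0.38). On chromosomes 8 and 11 it was at -0.15, beside -0.38 and -0.36. In the run at the end of chromosome 8, ZNF252P was at -1.20 and ZNF34 at 1.86, and the median of the 7 was -0.15.

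Other zinc finger families give a scale for these values in SW1736, each as a description, where 15.6% of all genes were 2-fold lower and 2.78% higher. Of 203 ZNF genes on chromosome 19 that passed the bound, 104 were 2-fold lower and 2 higher, with a median of -1.07, and the 169 KRAB genes among them were at -1.13, beside -0.85 for the KRAB members elsewhere. Of 26 finger-only ZNF genes on chromosome 19, 6 were 2-fold lower, with a median of -0.35, above the -0.65 of the finger-only members elsewhere. These differences between locations were not tested. Of 20 ZSCAN and ZKSCAN genes 11 were 2-fold lower (median -1.05), and of 37 ZBTB genes 9 (median -0.73). Of 15 genes with a ZFP symbol 5 were lower and 2 higher (median -0.81), with ZFP36 at 2.56 and ZFP36L1 at 2.03. The 19 SP and KLF genes stood apart in direction, with 6 higher, 2 lower and a median of 0.06, KLF4 being at 2.95 and KLF6 at 2.74. In 8505C the ZNF genes of chromosome 19 had 0 lower and 0 higher, as the members had, beside 0.171% and 0.273% of all genes. Of the 15 ZFP genes 1 was 2-fold lower there (ZFP91, -1.25), and of the 19 SP and KLF genes 1 was higher.

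A list of 26 genes held the KRAB corepressor, the HUSH complex and further chromatin factors, among them ATRX, DAXX, UHRF1, DNMT1, SUV39H2 and SMARCAD1. In SW1736 25 of the 26 lay below 0, beside 77.8% of all genes. Of the 26, 9 were 2-fold lower (15.6% of all genes) and 0 higher, with a median of -0.73, and 3 were 2-fold lower when centred on the median gene (4.07% of all genes). TRIM28, which binds KRAB domains, was at 524 and 337 TPM (-0.64), and its methyltransferase SETDB1 at 13.9 and 9.66 (-0.48). The HUSH genes MPHOSPH8, FAM208A and PPHLN1 were at -0.95, -1.42 and -0.30. ATRX, a chromatin remodeller of heterochromatin, was at 30.2 and 8.72 TPM (-1.68), and SMARCAD1 at 13.2 and 3.93 (-1.52). In 8505C 0 of the 26 were 2-fold in either direction, beside 0.171% lower and 0.273% higher of all genes.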

How the data were processed

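Per the labels' protocols, 1 µg of total RNA went into each Universal Plus mRNA-Seq library. The submitters' processing notes name bcl2fastq 2.20, StringTie and hg38. StringTie's version, like the aligner and the gene models, is not given in the sources used here. Gene tables with TPM, FPKM and coverage were deposited by the authors, per the file headers. TPM as deposited has the same sum in each library, so a gain of abundant mRNAs lowers all others. FPKM as deposited by the authors is scaled by mapped fragments and length, and coverage as deposited is mean read depth.

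Rows of an identifier were summed (1446 had several rows). Identifiers were matched by RefSeq symbol (23758), GENCODE 29 (671) or synonym (933), giving 11706 protein-coding genes that averaged 1 TPM or more. Of the members 213 are protein-coding and 4 pseudogenes, and 58 overlap another gene or have several rows. Domains came from GENCODE 29 coding sequences translated here, in place of the RefSeq proteins planned, with KRAB and SCAN called by profiles (minimum 10 and 20 bits). Members and lists were chosen with earlier results of these data known. With 1 library per group there is no test. The value of a marker gene is not reported here. Named genes were the 10 lowest and 6 highest of SW1736, 4 at each end in 8505C, 5 at each end untreated and the 6 most abundant (averaging at least 5 TPM), 3 on each side of the bound, runs of at least 4, the role panel and up to 3 per other family. Alternatives were other pseudocounts, filters, scalings and thresholds, and, added after the data were seen, leaving out members that share at least 10% of their mRNA in 50-base stretches. Counting was tested on simulated data. Python 3.11.15, pandas 2.3.3, numpy 2.4.6, scipy 1.17.1 and matplotlib 3.10.9 were used.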

Additional observations from a re-analysis of the deposited data

How the results depend on the processing

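No paired analysis was possible because each group is 1 library. No replicate could be left out for the same reason. In SW1736 the members' median was below 0 in every alternative run. It was -0.89 with a pseudocount of 0.1 (7 members 2-fold higher, and 45.6% of members lower beside 20.8% of all genes). With a pseudocount of 5 it was -0.43 and 9 were lower, 4.15% beside 5.88% of all genes, so the order of the shares turned. It was -0.66 for the 141 members with a mean of at least 5 TPM (43 lower and 2 higher, 30.5% lower beside 15.8%) and -0.65 with no filter. It was -0.46 on FPKM (18 lower, 8.30% beside 6.02%), -0.40 on centred coverage (29 lower and 8 higher, 13.4% lower beside 5.42%), and -0.34 centred on the median gene (15 lower and 7 higher, 6.91% lower beside 4.07%). With trends on length, GC content and expression removed it was -0.27 (12 lower and 8 higher, 5.61% lower beside 2.69%). At 1.5-fold 137 members were lower (63.1% beside 38.2%), and at 3-fold 11 were lower and 2 higher (5.07% lower beside 2.18%). In 8505C the count at 2-fold was 0 in both directions in every alternative run. Between the untreated lines, members lower and higher were 8 and 6 with a pseudocount of 5, 18 and 8 with a mean of at least 5 TPM, 20 and 11 on FPKM, 62 and 41 at 1.5-fold and 10 and 9 at 3-fold. The share lower was above that of all genes in the report (15.2% beside 12.6%) and with a mean of at least 5 TPM (12.8% beside 10.7%) and at 1.5-fold (28.6% beside 24.2%), but below it with a pseudocount of 5 (3.69% beside 7.49%), on FPKM (9.22% beside 10.4%) and at 3-fold (4.61% beside 6.11%). Of the 159 members with 1 row and no overlap, 24 were lower and 11 higher between the untreated lines. That is 15.1% lower beside 13.2% of all genes, where 9.56% were higher. With trends removed, 26 members were lower and 21 higher (12.15% lower beside 11.09%, and 10.7% of all genes higher), and the median was 0.01761. Without the 23 members that share at least 10% of their mRNA, 63 were lower and 4 higher in SW1736. That is 32.5% lower beside 15.6% of all genes, where 2.78% were higher. With all 13119 identifiers of that level as background in place of protein-coding genes, 15.5% were 2-fold lower in SW1736 (median -0.40). Fewer members enter the filtered settings, and for the others the cause was not tested. Read depth, with a median of 6.61 in the SW1736 DHT library, limits single low members.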
